A study of Mus musculus with 2 samples.

Results

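The genes described here are the 6 mouse loci that encode let-7a, let-7c and let-7f, each of these mature microRNAs coming from 2 hairpin genes. Mirlet7a-1, Mirlet7a-2, Mirlet7c-1, Mirlet7c-2, Mirlet7f-1 and Mirlet7f-2 were chosen by name, and all 6 were found among the 2202 microRNA genes of the count files. The samples were hippocampus of male B6CASTF1/J mice, an F1 cross between the strains C57BL/6J and CAST/EiJ, at 10 days of age and with no treatment named in the labels. There was 1 group of 2 replicates, called biological in the labels, with 3 males listed for each, so tissue of several animals was pooled. The animal numbers differ between the replicates, yet a single donor identifier stands for both, so whether they share animals cannot be settled from the labels and the spread between them may be partly technical. Total RNA was sequenced as microRNA libraries with fragments below 30 nt, and with 1 group the data hold no contrast between conditions.

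MicroRNA hairpins are cut out of long transcripts by Drosha and trimmed by Dicer into a duplex, one arm of which is usually kept by Argonaute and pairs with target transcripts through its seed, bases 2 to 8. In let-7 hairpins the kept arm is usually the 5p arm. The let-7 family is known for accumulating as cells leave proliferation and differentiate, the RNA-binding proteins LIN28A and LIN28B block its maturation in progenitors, and its known targets include Lin28 itself, Hmga2 and Ras genes. Mature let-7 is abundant in differentiated brain.

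The 3 mature 5p sequences are shown because their identity between loci decides what the counts can hold. They are from RefSeq (GRCm38.p6), with the seed in capitals.
let-7a-5p: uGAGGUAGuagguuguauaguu
let-7c-5p: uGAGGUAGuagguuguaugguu
let-7f-5p: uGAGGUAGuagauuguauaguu
The seed was the same in all 3 and occurred in 11 of the mature names of the RefSeq table, among them let-7b, let-7d, let-7e, let-7g, let-7i and miR-98. Counted from 1 at the 5′ end, let-7c differed from let-7a by the substitution A19G alone and let-7f by G12A alone, where the let-7a base comes first. Both lie outside the seed. Each of the 3 sequences occurred in exactly 2 of the 2202 annotated hairpins, the 2 named for it.

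The 6 hairpins follow, from RefSeq and identical in the GENCODE M21 transcripts, with both mature arms in capitals so that the flanks that tell loci apart can be seen.
Mirlet7a-1: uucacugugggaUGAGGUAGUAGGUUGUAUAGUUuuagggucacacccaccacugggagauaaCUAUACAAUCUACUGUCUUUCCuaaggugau
Mirlet7a-2: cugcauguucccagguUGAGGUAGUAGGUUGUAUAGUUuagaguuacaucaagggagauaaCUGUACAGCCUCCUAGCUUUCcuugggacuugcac
Mirlet7c-1: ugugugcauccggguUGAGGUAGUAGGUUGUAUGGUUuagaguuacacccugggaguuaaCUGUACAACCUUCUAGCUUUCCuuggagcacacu
Mirlet7c-2: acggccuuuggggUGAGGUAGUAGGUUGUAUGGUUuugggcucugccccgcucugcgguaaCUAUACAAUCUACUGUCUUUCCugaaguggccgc
Mirlet7f-1: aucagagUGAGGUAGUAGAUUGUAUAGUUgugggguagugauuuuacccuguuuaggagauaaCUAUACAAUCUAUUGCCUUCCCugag
Mirlet7f-2: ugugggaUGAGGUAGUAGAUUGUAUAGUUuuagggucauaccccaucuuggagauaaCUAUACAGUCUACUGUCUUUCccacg
Exact matching of these letters against all annotated hairpins gave the shortest read, starting at the first base of the mature 5p arm, that occurs in 1 hairpin only. It was 24 bases for Mirlet7a-1, Mirlet7a-2, Mirlet7c-1 and Mirlet7c-2, that is 2 bases past the 22-base mature end. It was 23 bases for Mirlet7f-1 and Mirlet7f-2, because the base after the mature end is G in Mirlet7f-1 and U in Mirlet7f-2. For each of the single-copy let-7 genes and Mir98, 15 to 17 bases were enough.

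The 3p arms separate most of the loci, and they are printed with capitals at the bases that differ from the 3p arm of Mirlet7a-1.
Mirlet7a-1 3p: cuauacaaucuacugucuuucc
Mirlet7a-2 3p: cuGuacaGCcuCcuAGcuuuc
Mirlet7c-1 3p: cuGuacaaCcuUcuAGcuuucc
Mirlet7c-2 3p: cuauacaaucuacugucuuucc
Mirlet7f-1 3p: cuauacaaucuaUugCcuuCcc
Mirlet7f-2 3p: cuauacaGucuacugucuuuc
The 3p arm of Mirlet7c-2 had the same 22 bases as that of Mirlet7a-1, on a different chromosome and with a different 5p arm. A read from the start of that arm had to reach 24 bases to occur in 1 hairpin only, whereas 15 bases were enough for the 3p arms of the 4 other genes. The hairpins of Mirlet7a-1 and Mirlet7c-2 shared a run of 26 bases, longer than the 23 bases shared by Mirlet7a-1 and Mirlet7a-2, the 23 shared by Mirlet7c-1 and Mirlet7c-2, and the 22 shared by Mirlet7f-1 and Mirlet7f-2. Of the 22-base windows that tile each hairpin, 7 of 73 in Mirlet7a-1 and 7 of 74 in Mirlet7c-2 also occurred in another microRNA hairpin. The numbers were 2 of 75 in Mirlet7a-2, 2 of 73 in Mirlet7c-1, 1 of 68 in Mirlet7f-1 and 1 of 62 in Mirlet7f-2, and 0 in the 6 single-copy genes of the family. Matches elsewhere in the genome, mismatches allowed by the aligner and CAST/EiJ alleles were not analysed here.

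**Figure D1:**
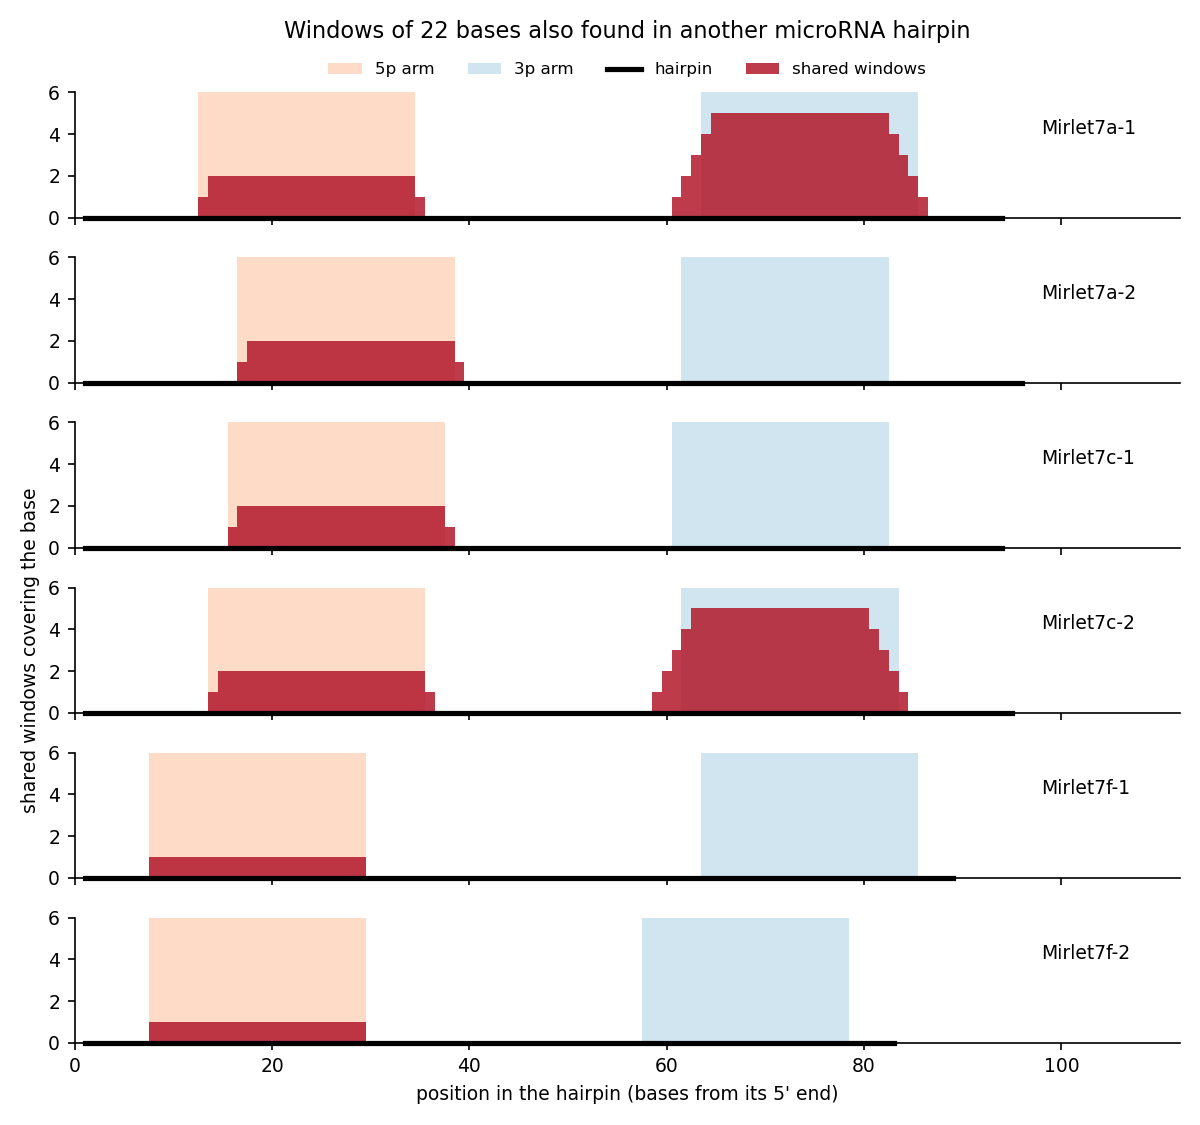
Number of 22-base windows covering each hairpin position (vertical axis) that also occur in another annotated microRNA hairpin, along the hairpin in bases from its 5′ end (horizontal axis), for the 6 genes. All 6 have shared windows over the 5p arm (shaded orange), and only Mirlet7a-1 and Mirlet7c-2 among these 6 have them over the 3p arm (shaded blue) as well.

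The gene counts hold only reads assigned to a single gene, so levels here are those of uniquely assigned reads and do not measure total let-7a, let-7c or let-7f. Reads that fit several places numbered 4020799 in replicate 2 and 4660508 in replicate 1, or 39.8% and 37.7% of all reads, and how many of them were let-7 reads is not known from the files. Counts on genes in the sense orientation totalled 3495401 in replicate 2 and 4815761 in replicate 1, and CPM below means counts per 1000000 of these. The 5p and 3p arms of a hairpin are not separated in the counts. Of the 14 genes listed as neuronal microRNAs, 13 had counts in both libraries and their sum was 2.87% of all counts for replicate 2 and 2.38% for replicate 1. Most of the list are copies of Mir124a, Mir9, Mir128, Mir138 and Mir218. Reads that fit several of these copies are missing from the sum, so it does not measure the neuronal share. Oligodendrocyte, astrocyte and vessel microRNAs were also present in both libraries. Red blood cell microRNAs differed most between them among the lists examined, at 76.4 CPM in replicate 2 and 1229 CPM in replicate 1. MicroRNAs listed for choroid plexus and ciliated cells, with Mir449a the highest, had 5331 and 2582 CPM. Whether these differences moved any let-7 value was not tested. Liver Mir122 stood at 31.5 CPM in replicate 2 and at 39.5 CPM in replicate 1, and of the 5 striated muscle genes Mir206 had 32.6 CPM (114 counts) for replicate 2 and 102 CPM (493 counts) for replicate 1. The other 4, the Mir1a and Mir133a copies, were at 0, but a read that fits several loci is not counted at any of them, so these zeros do not show that the microRNAs were absent. Counting intervals, limits and p values in the text cover counting error only, and reads copied by PCR are not independent molecules.

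All 6 genes had counts in both libraries, in the same order in each. Mirlet7c-2 had the highest level, followed by Mirlet7f-2, Mirlet7c-1, Mirlet7a-1, Mirlet7a-2 and Mirlet7f-1. Within each library the exact Poisson intervals of genes adjacent in this order did not overlap at the 95% level. Such intervals cover counting error and not the spread between replicates. Together the 6 made up 0.597% of the counts of replicate 2 (exact Clopper-Pearson interval 0.589 to 0.605%) and 0.636% of those of replicate 1 (0.629 to 0.643%), or 0.616% ± 0.0272 (SD, n = 2). The highest gene stood 39.5-fold above the lowest in replicate 2 and 48.3-fold in replicate 1. The let-7c genes held 63.0% of the summed counts of the 6 in replicate 2 and 64.4% in replicate 1, the let-7f genes 30.2% and 28.5%, and the let-7a genes 6.80% and 7.07%.

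The let-7c genes had the most uniquely assigned reads of the 3 pairs. Mirlet7c-2 had 9917 counts (2837 CPM) in replicate 2 and 15019 counts (3119 CPM) in replicate 1, a mean of 2978 ± 199 CPM (SD, n = 2). It ranked 63rd of all genes in replicate 2 and 59th in replicate 1. The gene lies at chr15:85706603-85706697 (mm10, plus strand) within an exon of Lncppara, a noncoding transcript, 621 bases before Mirlet7b. Mirlet7c-1 had 3244 counts (928 CPM) in replicate 2 and 4710 counts (978 CPM) in replicate 1, a mean of 953 ± 35.3 CPM (SD, n = 2). It lies at chr16:77599657-77599750 (plus strand) in an intron of Mir99ahg, the host transcript of Mir99a, and an intron of Gm11146 covers it on the opposite strand. Mirlet7c-2 exceeded Mirlet7c-1 by 3.06-fold in replicate 2 and 3.19-fold in replicate 1. The ratio of uniquely assigned reads between the 2 loci was thus close to the same in both libraries. Their countable stretches differ, since a read from the 3p start was unique at 24 bases for Mirlet7c-2 and at 15 for Mirlet7c-1.

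The let-7f genes were the most unequal pair. Mirlet7f-2 had 6046 counts (1729.7 CPM) in replicate 2 and 8409 counts (1746 CPM) in replicate 1, a mean of 1738 ± 11.6 CPM (SD, n = 2). It lies at chrX:151912346-151912428 (plus strand) in an intron of Huwe1, a gene for a ubiquitin ligase, and Mir98 follows it 785 bases further on. Mirlet7f-1 had 251 counts (71.8 CPM) in replicate 2 and 311 counts (64.6 CPM) in replicate 1, a mean of 68.2 ± 5.11 CPM (SD, n = 2). It lies at chr13:48537829-48537917 (minus strand), in an exon of the long noncoding RNA gene 6720427I07Rik. The annotated microRNA gene Gm24111 covers its hairpin in full on the opposite strand and had 0 counts in the sense column of both libraries. Without regard to strand, both Gm24111 and Mirlet7f-1 had 0 counts, so the level of Mirlet7f-1 rests on the stranded column. Mirlet7f-2 stood above Mirlet7f-1 by 24.1-fold in replicate 2 and 27.0-fold in replicate 1.

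The let-7a genes were the lowest pair by summed counts. Mirlet7a-1 had 1068 counts (306 CPM) in replicate 2 and 1492 counts (309.8 CPM) in replicate 1, a mean of 308 ± 3.02 CPM (SD, n = 2). It lies at chr13:48538179-48538272 (minus strand), in the same transcript as Mirlet7f-1 and likewise in an exon. Mirlet7a-2 had 351 counts (100.4 CPM) in replicate 2 and 672 counts (139.5 CPM) in replicate 1, a mean of 120.0 ± 27.7 CPM (SD, n = 2). It lies at chr9:41536716-41536811 (plus strand), in an intron of the noncoding transcripts 3110039I08Rik and Gm49317. Mirlet7a-1 was above Mirlet7a-2 by 3.04-fold in replicate 2 and 2.22-fold in replicate 1. Mirlet7a-1 and Mirlet7c-2, which share their 3p arm, stood 9.29-fold apart in replicate 2 and 10.1-fold apart in replicate 1, with Mirlet7c-2 the higher. A read from the 3p start was unique at 24 bases for Mirlet7a-1 and at 15 for Mirlet7a-2. In the reference, the 2 bases after the 5p arm were UU in Mirlet7a-1, Mirlet7c-2 and Mirlet7f-2, the higher gene of each pair. They were UA in Mirlet7a-2 and Mirlet7c-1 and GU in Mirlet7f-1. Whether these sequence differences moved the ratios between copies was not tested.

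**Figure D2:**
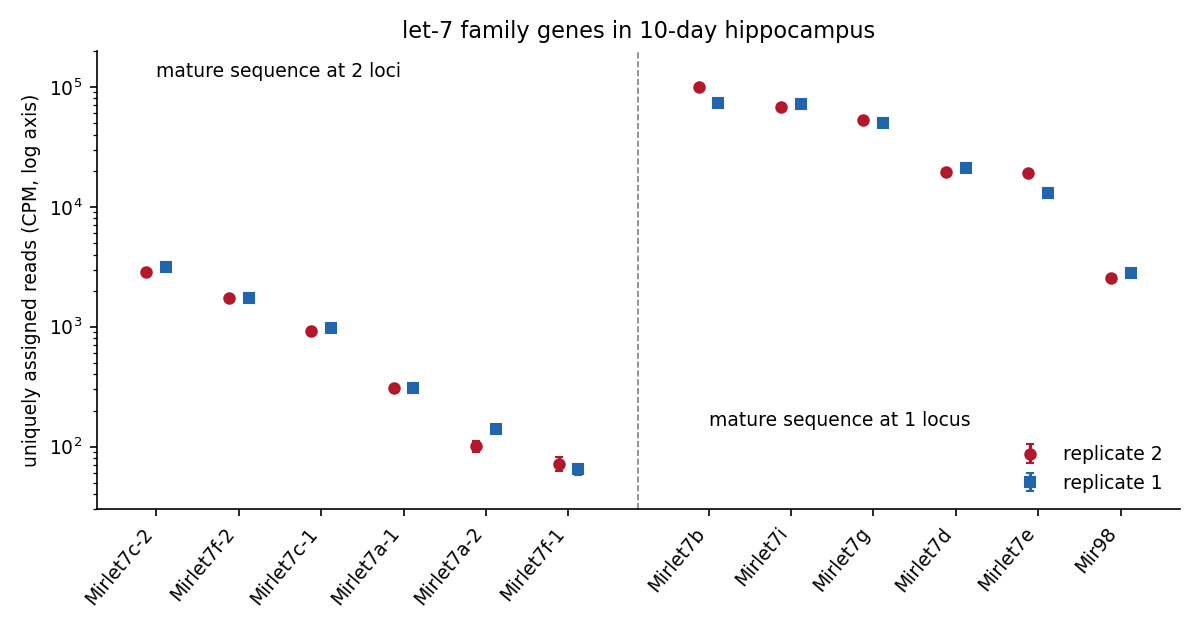
Uniquely assigned reads in CPM on a log axis for the 12 let-7 family genes in replicate 2 (circles) and replicate 1 (squares), with exact 95% Poisson intervals that are mostly smaller than the symbols. The 6 genes whose mature sequence has 2 loci lie between 64.6 and 3119 CPM, and the 6 with 1 locus lie between 2562 and 99739 CPM.

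Set beside the single-copy members of the family, the 6 genes held a small part of the uniquely assigned let-7 reads. Of the counts of all 12 family genes, the 6 took 2.23% in replicate 2 and 2.65% in replicate 1. The 6 single-copy genes Mirlet7b, Mirlet7d, Mirlet7e, Mirlet7g, Mirlet7i and Mir98 made up 26.2% of all counts for replicate 2 and 23.3% for replicate 1. The lowest of them, Mir98, stood at 2562 CPM in replicate 2 and at 2795 CPM in replicate 1, below Mirlet7c-2 (2837 and 3119 CPM) in both libraries and above the 5 other genes. This ordering compares uniquely assigned reads, and reads of the full 22-base let-7a, let-7c and let-7f sequences fit 2 hairpins each and fall outside it. Among genes whose mature product is named let-7 but lies outside these 12, Mir7j (let-7j, whose seed differs) had 61 counts in replicate 2 and 70 in replicate 1, and Mir7k (let-7k, with the let-7 seed) had 1 and 4.

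Each of the 6 genes lies in a cluster with a single-copy microRNA within 10000 bases, and each had fewer counts than that neighbour in both libraries. The full 22-base 5p sequences of the 6 fit 2 hairpins each, whereas 15 to 17 bases were unique for Mirlet7b, Mirlet7d and Mir98. This was not worked out for Mir99a and Mir100. The shares below therefore compare uniquely assigned reads and not the output of the loci. On chromosome 13, Mirlet7a-1 had 1.56% of the counts of Mirlet7d in replicate 2 and 1.48% in replicate 1, and Mirlet7f-1 had 0.366% and 0.308%. Mirlet7d itself stood at 19618 CPM in replicate 2 and at 20958 CPM in replicate 1. On chromosome 9, Mirlet7a-2 had 1.01% of the counts of Mir100 in replicate 2 and 0.983% in replicate 1. For Mirlet7a-1 and Mirlet7a-2 the share of the neighbour was close between the libraries, while that of Mirlet7f-1 was lower in replicate 1. Equal capture of different microRNAs was not analysed here. On chromosome 16, Mirlet7c-1 had 1.55% of the counts of Mir99a in replicate 2 and 1.07% in replicate 1. On chromosome 15, Mirlet7c-2 had 2.84% of the counts of Mirlet7b in replicate 2 and 4.22% in replicate 1. On the X chromosome, Mirlet7f-2 came nearest to its neighbour, with 67.5% of the counts of Mir98 in replicate 2 and 62.5% in replicate 1. The microRNAs called miR-125b also come from 2 loci, 1 beyond each of the chromosome 9 and chromosome 16 clusters. Mir125b-1, in the stretch of Mirlet7a-2, stood at 2050.4 CPM in replicate 2 and at 1766 CPM in replicate 1, and Mir125b-2, in the stretch of Mirlet7c-1, had 959.8 and 504 CPM.

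Other microRNAs with 1 mature sequence at exactly 2 annotated hairpins show how usual such unequal counts are. The RefSeq mature sequences gave 47 further pairs, of which 16 had 0 counts at both genes in both libraries and 20 had at least 10 counts at each gene. In these 20 pairs the higher gene exceeded the lower by a median of 2.81 times in mean CPM, and the range ran from 1.07 times for Mir29b-2 and Mir29b-1 (0.818 in replicate 2 and 1.89 in replicate 1) to 104 times for Mir181b-2 and Mir181b-1. The let-7a genes at 2.56 times and the let-7c genes at 3.12 times lay near that median. The let-7f genes at 25.5 times were exceeded by 4 of the 20 pairs in mean CPM, by 4 in replicate 2 and by 2 in replicate 1. The pair with the highest summed level was Mir138-1 and Mir138-2, neuronal microRNA genes, at 5734 and 2173 CPM, and the pair with the lowest was Mir365-2 and Mir365-1. The higher gene was above Mirlet7c-2 in 3 of the 20 pairs. The pairs were not tested against each other, and which gene is called higher was set by these same counts.

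**Figure D3:**
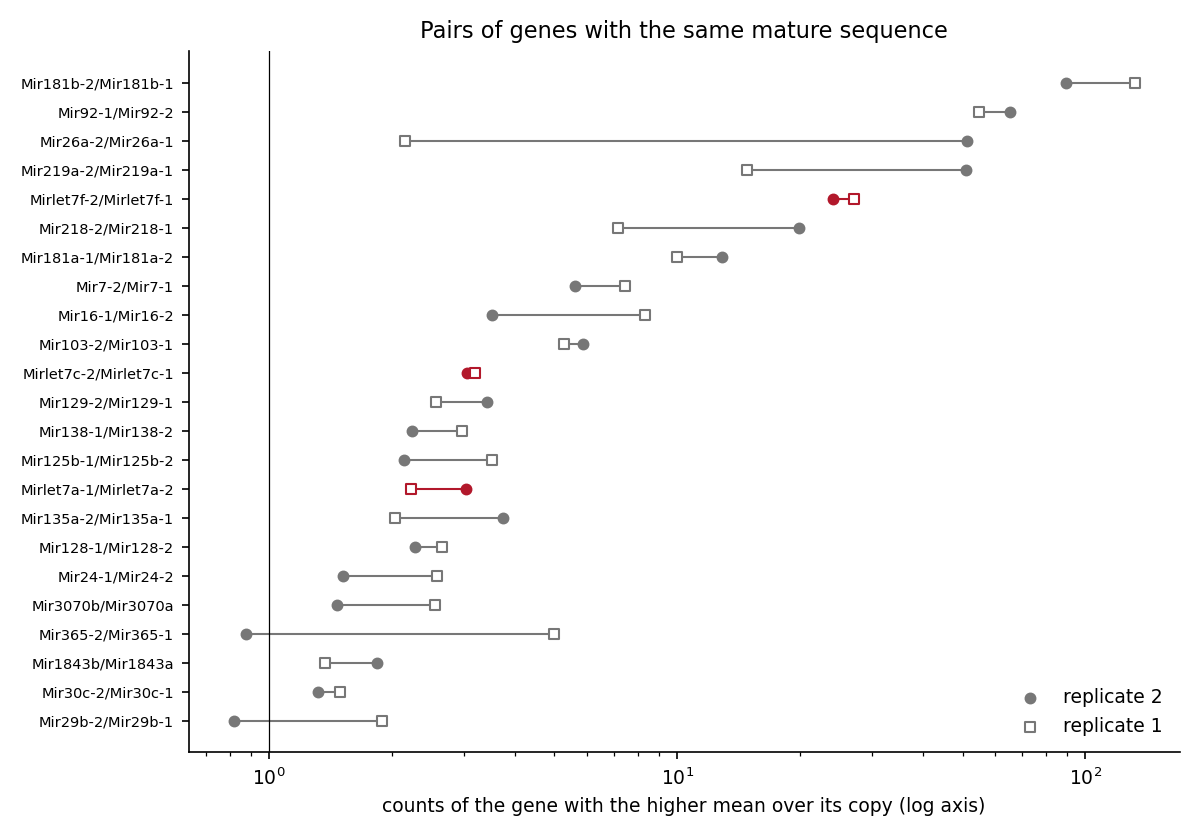
Counts of the gene with the higher mean divided by counts of its copy, on a log axis, for the 23 pairs of genes with a shared mature sequence and at least 10 counts at each gene. Filled circles are replicate 2 and open squares replicate 1, and the 3 let-7 pairs in red lie at 2.22 to 3.04 for let-7a, 3.06 to 3.19 for let-7c and 24.1 to 27.0 for let-7f.

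The remaining comparison was between the 2 libraries, and it compares these libraries and not conditions. The test was an exact binomial one, two-sided and given the library totals, and a gene was called where its p, adjusted by Benjamini-Hochberg over 540 tested genes, was below 0.05 and its log2 ratio lay at 1 or more in either direction. None of the 6 genes was called, against 18.7% of the tested genes. At an unadjusted p below 0.05 from the same test there were 3, Mirlet7a-2, Mirlet7c-1 and Mirlet7c-2, against 59.4% of all tested genes. The same 3 passed the adjusted p without a minimum ratio, as did 55.7% of all tested genes, and with 1 library on each side a low p here does not set the difference against replicate spread. Mirlet7a-2 was lower in replicate 2 by a log2 ratio of -0.47 (exact binomial test, adjusted p = 1.2e-06), Mirlet7c-2 by -0.14 (exact, adjusted p = 7.28e-13) and Mirlet7c-1 by -0.08 (exact, adjusted p = 0.0399). For Mirlet7c-1 the exact adjusted p was 0.0562 with no count minimum and 0.0538 with the unstranded column, so it did not pass there. Over all settings the exact adjusted p of Mirlet7c-1 ran from 4.82e-13 to 0.0562. For Mirlet7a-2 it ran from 2.06e-11 to 1.77e-06 and for Mirlet7c-2 from 2.6e-59 to 3.08e-12. Mirlet7a-1 at -0.02, Mirlet7f-2 at -0.01 and Mirlet7f-1 at 0.15 did not pass with library totals. Their exact adjusted p values were 0.82, 0.679 and 0.314. Under other scalings, at the adjusted p alone, Mirlet7f-2 passed under TMM (log2 ratio -0.10, exact adjusted p = 0.00011) and under DESeq2 scaling (-0.18, exact adjusted p = 3.66e-13). Mirlet7a-1 passed with DESeq2 size factors (-0.19, exact adjusted p = 0.00255) and not with TMM sizes (-0.11, exact adjusted p = 0.113). The number of the 6 past the adjusted p was therefore 3 for library totals (55.7% of all tested genes), 4 under TMM (55.7%) and 5 under DESeq2 scaling (57.6%).

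The absolute log2 ratios of the 6 genes had a median of 0.11, against 0.11 for the 6 single-copy let-7 genes and 0.54 over the 540 tested genes. With DESeq2 size factors the median was 0.21 for the 6 and 0.52 for all tested genes. Tested genes needed only 10 counts over both libraries, where counting error is large, while the 6 had 562 to 24936. The genes were not matched for level, so these medians and the ranks below do not set let-7 apart from genes of like counts. Ordered from the smallest absolute ratio with library totals, Mirlet7f-2 was 5th of 540 and Mirlet7a-1 was 12th, while Mirlet7a-2 at 247th lay near the middle. These ranks depend on the scaling, since with DESeq2 size factors Mirlet7f-2 had a log2 ratio of -0.18 and Mirlet7a-1 one of -0.19. The median signed ratio was -0.05 for the 6, -0.003 for the 6 single-copy let-7 genes and 0.17 for all tested genes. All 6 lay below the median of all tested genes, Mirlet7f-1 only narrowly at 0.15. With a minimum of 20 counts the median of all tested genes was 0.10, and 5 of the 6 lay below it. With DESeq2 size factors the median of all tested genes was 0.01, that of the 6 was -0.21, and Mirlet7f-1 changed sign to -0.01. The single-copy neighbours had ratios near theirs at some loci and not at others. Mir100 had a ratio of -0.52 beside the -0.47 of Mirlet7a-2, whereas Mir99a had -0.61 beside the -0.08 of Mirlet7c-1, and Mirlet7b had 0.43 beside the -0.14 of Mirlet7c-2. Mirlet7d at -0.10 and Mir98 at -0.13 lay nearer to the genes beside them. Whether members and neighbours differ in their ratios was not tested.

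**Figure D4:**
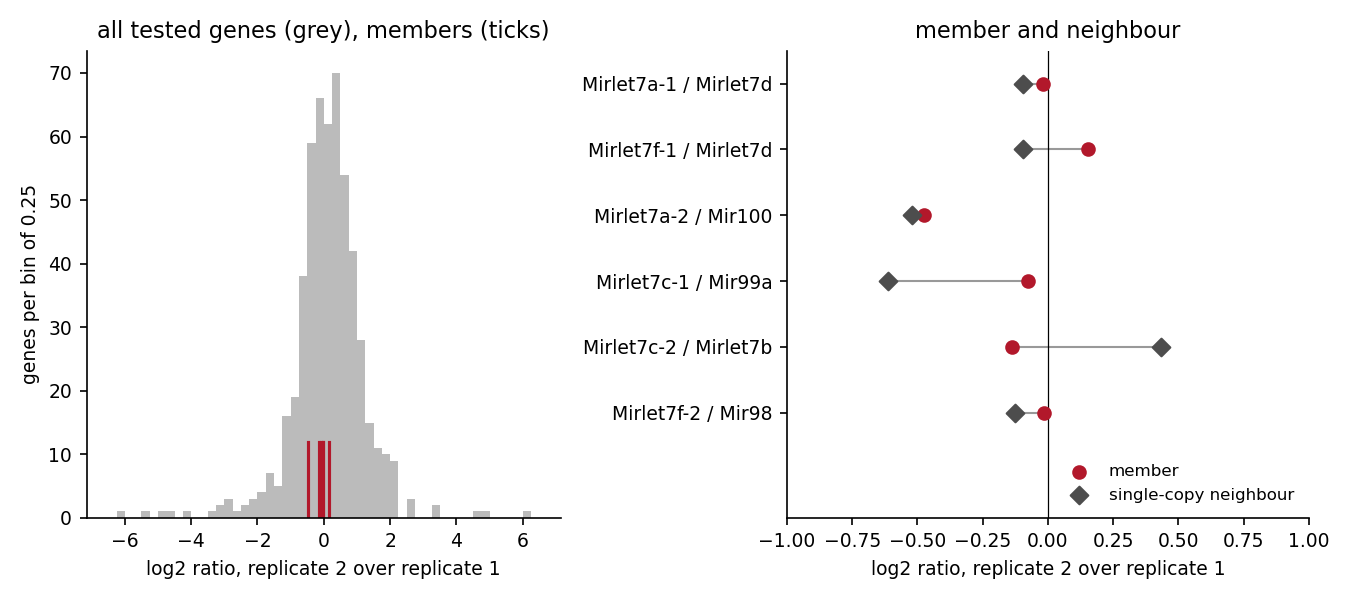
Left, log2 ratios of replicate 2 over replicate 1 for the 540 tested genes as a histogram of genes per bin of 0.25, with the 6 let-7 genes as red ticks between -0.47 and 0.15. Right, the same ratio for each let-7 gene (circle) and its single-copy neighbour (diamond), where Mirlet7a-2 and Mir100 lie close together and Mirlet7c-1 and Mir99a lie apart.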

How the data were processed

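MicroRNA-seq of 2 libraries was used. The authors deposited raw read counts per microRNA gene, unstranded and for each strand, made on mm10 with GENCODE M21, per the file headers of the notes deposited with them; each file came from the reads of its own library. Names and versions of the aligner and counter: not given in the sources used here. Lines of totals (unmapped, several places, outside genes, ambiguous) were left out of library sizes; of all reads, counts on genes made up 34.6% in replicate 2 and 38.9% in replicate 1. The third column was taken as sense; its total was larger than the antisense total (212165 in replicate 2, 281272 in replicate 1).

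All 2202 identifiers matched GENCODE M21. CPM used counts on genes; 3 counts correspond to 0.858 CPM in replicate 2 and 0.623 CPM in replicate 1. The test took in each gene whose 2 libraries summed to 10 counts or more, with 0.5 counts added for log2 ratios. The quasi-likelihood test of edgeR was not used, because this comparison has 1 library on each side and so no replicates within a side. TMM (edgeR) and DESeq2 size factors were alternatives. Hairpin sequences were searched exactly, sense orientation only. The comparison was run on simulated Poisson counts with known folds and no spread between replicates. Its behaviour on data with such spread was not tested. Genes named are the 6, the rest of the let-7 family, their cluster mates and extremes of other pairs; members and lists were chosen with earlier results of these data known, and the shortest unique reads were added after their values were seen. Tests ran in SciPy 1.17.1 under Python 3.11.15, library sizes in edgeR 4.0.16 and DESeq2 1.42.0 under R 4.3.3.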

Additional observations from a re-analysis of the deposited data

How the results depend on the processing

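The share of counts taken by the 6 genes was 0.616%, with a median level of 630.4 CPM. These values were 0.648% and 670.2 CPM with the unstranded column, 0.227% and 232 CPM with all reads as the denominator, and 0.30% and 307 CPM with multimapping reads added to it. With 1 replicate left out they ranged from 0.597 to 0.636% and from 617 to 644 CPM. The median ratio of neighbour to let-7 gene in uniquely assigned reads was 72.6, and 64.3 to 80.5 with 1 replicate left out. Without a ratio minimum, 301 genes differed in place of 101, 3 of the 6 among them. In the 6 other settings the number was 90 to 111 with 0 of the 6; at the adjusted p alone 2 to 5 of the 6 passed, and with the unstranded column 5 of the 6 were tested. The share of differing genes that were higher in replicate 2 was 61.4%, and became 52.1% under TMM and 45.5% under DESeq2 scaling, and the ratio of Mirlet7f-1 was -0.013 with DESeq2 factors. Of 425 windows of 22 bases in the 6 hairpins 20 were shared, against 42 of 437 windows of 20 bases and 72 of 449 of 18 bases. No paired analysis was possible because there is 1 group. Reads that fit several places limit all levels, and Mirlet7f-1 rests on 251 and 311 counts.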
